A study of Mus musculus with 6 samples.

Results

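CpG methylation was described at 7 genes of the lymphoid lineages in mouse LSK cells: Ikzf1, Bcl11a, Ebf1, Pax5, Il7r, Rag1 and Rag2. The genes lie in 6 loci, since Rag1 and Rag2 are neighbours and share a locus. Each locus was a stretch of the mouse build mm9 fixed by its coordinates, and every CpG listed inside it was taken. The loci held 1003 of the 2335885 autosomal 1 kb windows with a CpG, and 552 of these windows had enough reads to be tested, of 774732 tested on all autosomes. LSK cells are the lineage-negative, Sca-1-positive and c-Kit-positive fraction of bone marrow, which contains blood stem cells and early progenitors. Cells of Tet2/3 DKO mice, which lack Tet2 and Tet3 (3 samples), were compared with wild-type cells (WT, 3 samples). All samples were sorted from the marrow of femurs and tibiae after depletion of lineage-positive cells. The labels do not say how or when each gene was deleted, which strain or age the mice had, or whether a replicate was a single animal. P-values therefore rest on the spread between these samples, which the window test moderates with the spread seen over all autosomal windows.

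Tet2 and Tet3 encode enzymes that oxidise 5-methylcytosine, the methyl mark of CpGs, to 5-hydroxymethylcytosine and further products, a route by which methylation is lost. Bisulfite sequencing reads 5-methylcytosine and 5-hydroxymethylcytosine alike as methylated, so a level here is the sum of both marks. A level is also an average over the sorted cells: a shift in the mixture of cells and a change within cells cannot be told apart. Among the genes, Ikzf1 encodes Ikaros, a zinc-finger factor needed early for the lymphoid lineages. Bcl11a encodes a zinc-finger repressor that early lymphoid progenitors and B cells need and that silences fetal globin genes in red cells. Ebf1 and Pax5 encode the factors that specify the B lineage and hold cells in it. Il7r encodes a chain of the interleukin-7 receptor, through which lymphoid progenitors receive survival and growth signals. Rag1 and Rag2 encode the recombinase that assembles antigen receptor genes.

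The DKO samples had 83560585 to 111763872 read calls at CpGs, and the WT samples had 70815948 to 72747248. The mean depth was 4.09 to 5.46 reads per CpG in DKO samples and 3.46 to 3.56 in WT samples, so the DKO levels carry less counting error. The level over all autosomes was 81.6% ± 0.826 in DKO samples and 80.8% ± 0.314 in WT samples (SD, n = 3 each). On chromosome 3, where Tet2 lies, the segment from 133132001 to 133136000 had 0 reads in each DKO sample, against 109 to 165 reads in WT samples. On chromosome 6, where Tet3 lies, the segment from 83352001 to 83355000 had 14, 0 and 0 reads in DKO samples, against 169 to 231 reads in WT samples.

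The promoter sequences of Ikzf1, Rag2 and Rag1 are shown because the levels around these start sites are described below. These promoters also differ widely in how many CpGs can carry the mark. They are RefSeq sequences of GRCm38.p6 of 300 bases, from 250 before to 50 after the start site, written 5′ to 3′ along the gene with each CpG in capitals. They were placed in the mm9 table by the spacing of their CpGs, and the mm9 position stands beside each name.
Ikzf1 start site 1, chr11:11585678-11585977, plus strand: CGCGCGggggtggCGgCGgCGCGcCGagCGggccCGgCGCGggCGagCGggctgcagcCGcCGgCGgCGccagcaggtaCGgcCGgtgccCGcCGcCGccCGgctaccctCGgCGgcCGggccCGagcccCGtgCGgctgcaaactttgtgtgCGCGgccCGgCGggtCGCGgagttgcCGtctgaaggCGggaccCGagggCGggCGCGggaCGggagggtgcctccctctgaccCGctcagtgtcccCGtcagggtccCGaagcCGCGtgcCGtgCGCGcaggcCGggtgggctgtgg
Ikzf1 start site 2, chr11:11589930-11590229, plus strand: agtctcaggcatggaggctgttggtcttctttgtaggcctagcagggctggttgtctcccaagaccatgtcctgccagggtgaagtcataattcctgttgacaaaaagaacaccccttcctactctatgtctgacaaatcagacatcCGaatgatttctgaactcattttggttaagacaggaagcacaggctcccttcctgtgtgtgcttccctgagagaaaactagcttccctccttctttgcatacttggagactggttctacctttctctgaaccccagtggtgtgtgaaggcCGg
Rag2, chr2:101464619-101464918, plus strand: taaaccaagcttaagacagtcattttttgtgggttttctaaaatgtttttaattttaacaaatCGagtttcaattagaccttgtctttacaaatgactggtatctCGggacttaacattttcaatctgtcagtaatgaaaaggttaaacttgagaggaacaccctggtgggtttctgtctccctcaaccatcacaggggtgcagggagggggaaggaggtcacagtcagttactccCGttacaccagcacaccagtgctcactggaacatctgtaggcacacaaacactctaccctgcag
Rag1, chr2:101489640-101489939, minus strand: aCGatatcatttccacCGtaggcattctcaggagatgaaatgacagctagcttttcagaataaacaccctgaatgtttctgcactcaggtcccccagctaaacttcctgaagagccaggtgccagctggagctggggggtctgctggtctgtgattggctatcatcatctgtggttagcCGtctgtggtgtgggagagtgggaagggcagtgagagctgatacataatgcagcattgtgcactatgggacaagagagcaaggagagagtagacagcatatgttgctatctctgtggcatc
The first of these has 52 CpGs, a number reached by 0.575% of the 32851 RefSeq promoter sequences of this length. Ikzf1 start site 2 has 2 CpGs, and Rag2 and Rag1 have 3 each. RefSeq promoters had a median of 7 CpGs, and 31.4% had 3 or fewer. Pax5 and Bcl11a have 23 CpGs each, a number reached by 21.5% of promoters, and the start sites of Ebf1 have 9 and 17. The Il7r promoter has 1 CpG and could not be placed, so its start site was not measured.

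Summed over whole loci, the Bcl11a locus was higher in DKO samples than in WT samples by the widest margin of the 6, followed by the loci of Rag1 and Rag2 and of Ikzf1. The loci of Ebf1 and Il7r had almost the same level in both groups. The level of the Bcl11a locus (130 kb, 1718 CpGs) was 68.7, 68.1 and 68.4% in DKO samples, against 61.5, 63.3 and 61.9% in WT samples. The lowest DKO sample thus lay above the highest WT sample, and the means differed by 6.18 points ± 0.572 (SE). The Rag locus (50 kb, 490 CpGs) had 77.0, 74.6 and 76.0% in DKO samples, against 70.6, 72.9 and 73.2% in WT samples. These groups did not overlap either, and the difference was 3.62 points ± 1.07. The Pax5 locus (215 kb, 2986 CpGs) had 68.1, 68.0 and 68.8% in DKO samples, against 66.9, 66.6 and 66.8% in WT samples, a small difference of 1.56 points ± 0.253 without overlap.

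The Ikzf1 locus (125 kb, 1189 CpGs) had 78.4, 70.0 and 75.4% in DKO samples, against 73.2, 69.6 and 71.2% in WT samples. DKO replicate 2 lay inside the WT range, and the means differed by 3.27 points ± 2.67. Leaving out DKO replicate 2 gave a difference of 5.58 points, and leaving out DKO replicate 1 gave 1.37 points. The Ebf1 locus (430 kb, 4293 CpGs) averaged 79.5% ± 0.835 in DKO samples and 79.9% ± 1.29 in WT samples (SD, n = 3 each). The Il7r locus (55 kb, 354 CpGs) averaged 91.7% ± 1.68 in DKO samples and 91.4% ± 1.59 in WT samples, the highest level of the 6 loci.

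**Figure D1:**
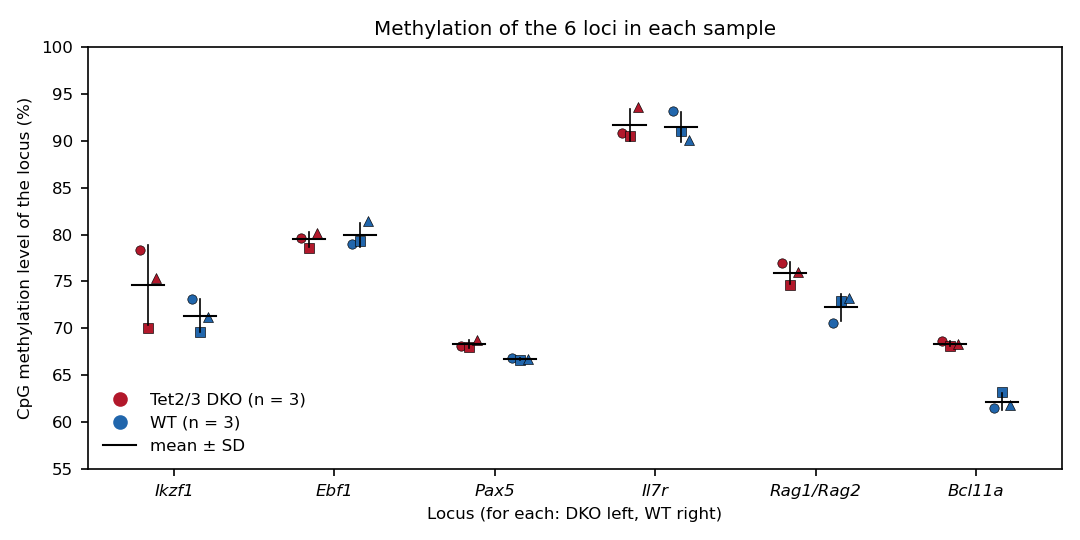
CpG methylation level (%, vertical axis) of each of the 6 loci (horizontal axis), with DKO samples left and WT samples right of each locus. Points are samples (circle, square and triangle for replicates 1, 2 and 3), bars the mean ± SD, and the axis starts at 55%. The groups are apart at Pax5, Rag1/Rag2 and Bcl11a. At Bcl11a they average 68.4% in DKO and 62.2% in WT.

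A two-sided exact permutation test gave p = 0.1 for Bcl11a, Rag and Pax5, the smallest value that 3 samples against 3 allow, and p = 0.2 after adjustment over the 6 loci. The p-values were 0.3 for Ikzf1, 0.7 for Ebf1 and 0.8 for Il7r. Set against the autosomal level of the same sample, the difference was 5.40 points at Bcl11a, 2.84 at Rag and 0.774 at Pax5, with all DKO samples above all WT samples. At Ebf1 it was -1.22 points, with all DKO samples below. Where every CpG with a read in all 6 samples was given the same weight, Bcl11a differed by 5.64 points, Ikzf1 by 5.01 and Rag by 2.55, each without overlap. At the same CpGs without equal weights the Rag difference was 0.822 points (exact permutation p = 0.6), so its size depended on how these CpGs were weighted.

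In single 1 kb windows, 5 of the 552 tested were called higher in DKO samples, 3 of them at Ikzf1 and 2 at Bcl11a. A call required an adjusted p under 0.05 in a quasi-binomial model of the read counts, with Benjamini-Hochberg adjustment over all autosomal windows, and a difference of at least 10 points. Of all autosomal windows, 0.497% were called in either direction, 0.49% higher and 0.00723% lower. At an unadjusted p under 0.05 in this model, 54 windows of the loci were higher and 7 lower, beside 7.32% and 1.95% of all autosomal windows. In the 6 loci 0 windows were called lower in the quasi-binomial model. There limma called 0 windows in either direction, as it did over all autosomes, so its lack of calls is not particular to the loci. At an unadjusted p under 0.05 limma had 42 windows of the loci, for which the share of all autosomal windows was not taken.

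All DKO samples exceeded all WT samples in 57 of the 552 windows (10.3%), close to the 9.05% of all autosomal windows. All DKO samples lay below in 16 (2.90%), against 3.75% of all. The loci differed widely in this count. At Bcl11a it was 23 of 87 windows (26.4%) above and 4 below, at Rag 4 of 21 above and 0 below, and at Ikzf1 8 of 59 above and 0 below. At Ebf1 it was 13 of 225 above (5.78%) and 7 below, at Pax5 9 of 155 above (5.81%) and 5 below, and at Il7r 0 of 5 either way. The median difference was 3.30 points at Bcl11a, 2.52 at Ikzf1, 2.49 at Rag, 1.09 at Pax5, 0.204 at Ebf1 and -1.06 at Il7r, beside 0.927 points over all autosomal windows.

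**Figure D2:**
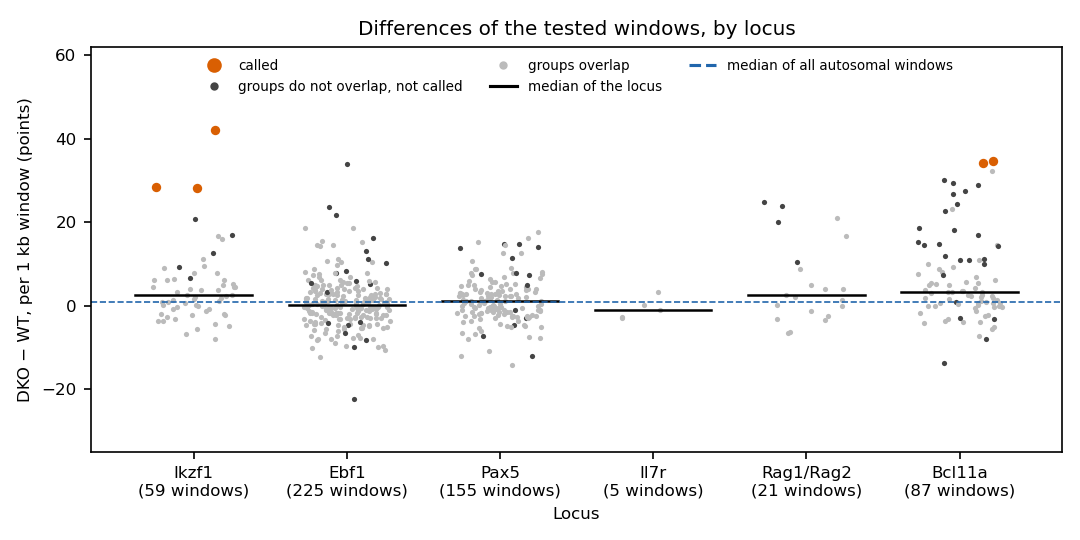
Difference in level between the DKO and the WT mean (points, vertical axis) in each tested 1 kb window, by locus (horizontal axis, with the number of windows). Orange points are called windows, dark points those whose samples do not overlap between groups, light points the rest, and horizontal bars the median of each locus. The called windows, 3 at Ikzf1 and 2 at Bcl11a, lie between 28.2 and 42.0 points.

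At Ikzf1, methylation rose in DKO cells over the 2 kb that hold start site 2 and lie just beyond the unmethylated stretch of start site 1, and in a window deep in the gene. The unmethylated promoter of start site 1 itself had almost no methylation in either group. In the window of start site 2 (chromosome 11, 11590001 to 11591000, 14 CpGs, 50 to 118 reads per sample), the level was 66.1, 65.7 and 58.4% in DKO samples, against 16, 18.3 and 29.9% in WT samples. The lowest DKO value was thus far above the highest WT value, and the difference of 42.0 points was past the threshold (adjusted p = 0.00183, higher in 3 of 3 samples). The adjoining window (11591001 to 11592000, 19 CpGs, 77 to 205 reads) had 56.3, 50.7 and 66.2% in DKO samples, against 23.2, 27.1 and 38.4% in WT samples. The groups were apart there too, by 28.2 points (adjusted p = 0.0305). In the window after these the level was already high in WT cells, at 89.5% ± 2.05 in DKO samples and 80.3% ± 7.76 in WT samples (SD, n = 3 each), and the difference was not called.

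The window inside the gene (11651001 to 11652000, 9 CpGs, 37 to 73 reads) is centred 61.3 kb after start site 2. It was almost fully methylated in DKO samples, at 98.6, 98.6 and 98.4%, against 73.5, 70.3 and 66.7% in WT samples, a difference of 28.4 points (adjusted p = 0.00426). The DKO samples were nearly equal, and all lay well above the WT samples. The window of start site 2 stayed past the threshold at minimum depths of 10 and 40 reads and without DKO replicate 3 (adjusted p = 0.0315) or WT replicate 3 (0.0259), but not without DKO replicate 1 (0.0611) or 2 (0.0951) or WT replicate 1 (0.0514) or 2 (0.0631). The other called windows at Ikzf1 each lost the call when any replicate of either group was left out (adjusted p = 0.0539 to 0.272), while their difference kept its direction, and limma gave 0.332 to 0.561 for all 3.

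From 1 kb before to 1 kb after start site 2 (23 CpGs), the level was 60.1% ± 1.58 in DKO samples and 30.7% ± 9.94 in WT samples, 29.4 points apart without overlap (exact permutation p = 0.1). Its promoter sequence, with only 2 CpGs, added little: the CpG 103 bases before the start site had 0 methylated of 7 reads in DKO and 0 of 15 in WT. The CpG 47 bases after it had 6 of 16 in DKO and 0 of 13 in WT, which allows up to 23.1%. Without these 2 CpGs the difference was 28.6 points, again without overlap.

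Start site 1 of Ikzf1, 4252 bp upstream, sits in a low stretch of 5 windows (11585001 to 11590000, 214 CpGs) with a level under 20%. This stretch had 5.44% ± 1.40 in DKO samples and 3.09% ± 1.99 in WT samples (SD, n = 3 each; exact permutation p = 0.2). The window of start site 1 (11585001 to 11586000, 117 CpGs) had 5.38, 10.3 and 7.38% in DKO samples, against 28, 2.63 and 13% in WT samples, where the highest value came from 25 reads. In the promoter sequence 0 methylated reads were seen in any sample, among 151, 398 and 193 reads in DKO samples and 0, 138 and 24 in WT samples. WT replicate 1 thus gave no value there. The counts of 0 allow up to 0.754 to 1.99% in DKO samples and 2.17 and 12.5% in the 2 WT samples with reads. These limits take each CpG call as a separate read. A read counts at each CpG it covers, so the true limits are higher. The share of reads of mitochondrial DNA called methylated, a measure of incomplete conversion, was 1.71% ± 0.170 in DKO samples and 1.28% ± 0.0797 in WT samples. Its part in differences of 1 or 2 points at low levels was not tested.

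Along the gene body of Ikzf1, from 1 kb after start site 1 to the end of the RefSeq gene length, the level was 84.2% ± 1.21 in DKO samples and 77.7% ± 0.462 in WT samples (SD, n = 3 each). All DKO samples lay above all WT samples, by 6.51 points between the means (exact permutation p = 0.1). Upstream of the gene, adjoining windows from 11567001 to 11569000 had 75.1% ± 8.43 in DKO samples and 56.4% ± 4.99 in WT samples. They were apart in both windows, by 20.7 and 17.0 points, but not called (adjusted p = 0.415 and 0.547). A window 36.3 kb after start site 2 (11626001 to 11627000) had 87.2, 94.8 and 95% in DKO samples, against 81.5, 82.5 and 75.0% in WT samples, and was not called (adjusted p = 0.524).

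**Figure D3:**
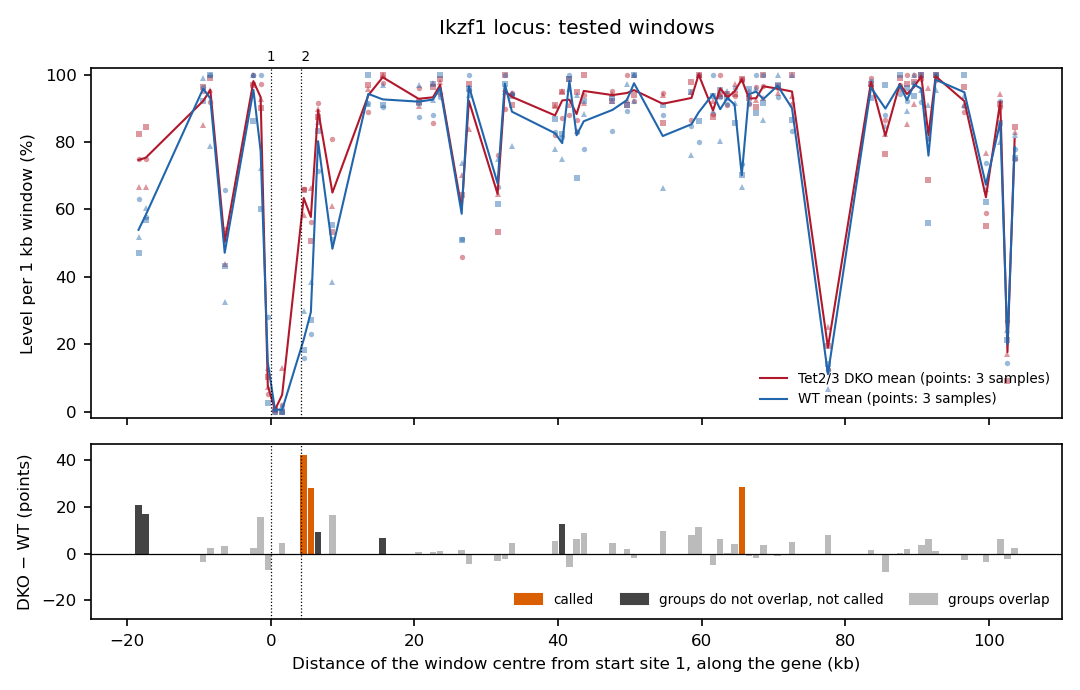
Level of each tested 1 kb window of the Ikzf1 locus (%, upper panel; points are samples, lines join group means across untested gaps) and the difference between the DKO and the WT mean (points, lower panel) by distance from start site 1 (kb). Dotted lines mark start sites 1 and 2. The called windows, in orange, stand at start site 2 and 61.3 kb after it, where DKO levels exceed WT levels by 28.2 to 42.0 points.

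At Bcl11a, the difference was spread along the gene. Of the 23 windows in which all DKO samples exceeded all WT samples, 21 lay between the start site and the end of the RefSeq gene length. The gene takes up 96995 bp of the 130 kb locus, and the share of all tested windows inside it was not taken. Of the 23 windows, 20 differed by at least 10 points, for which the share of autosomal windows was not taken. By mean level, 12 of the 23 windows stood at 50 to 80%, 8 at 80% or more, 2 at 10 to 50% and 1 below 10%. The 16 windows of 50 to 80% mean level had 76.9% ± 0.784 in DKO samples and 59.1% ± 2.81 in WT samples, 17.7 points apart, and in 12 of them all DKO samples lay above all WT samples (75.0%, beside 19.1% of autosomal windows of that class). The 8 windows at 10 to 50% had 43.7% ± 7.96 in DKO samples and 29.4% ± 1.49 in WT samples, and all DKO samples lay above in 25% of them, beside 19.2% of autosomal windows of that class. The 53 windows at 80% or more had 92.9% ± 0.663 in DKO samples and 89.7% ± 0.943 in WT samples (SD, n = 3 each), and all DKO samples lay above in 15.1% of them, beside 7.18%. Each of these classes had p = 0.1 in the exact permutation test.

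Methylation rose past the threshold in 2 windows of Bcl11a. The window centred 55.8 kb after the start site (chromosome 11, 24036001 to 24037000, 9 CpGs, 29 to 107 reads) had 95.3, 78.9 and 85.4% in DKO samples, against 62.1, 34.6 and 58.7% in WT samples. WT replicate 2 was the lowest of the 6 by a wide margin, yet the groups did not overlap, with a difference of 34.8 points (adjusted p = 0.00709). The window 20.8 kb after the start site (24001001 to 24002000, 9 CpGs, 21 to 58 reads) had 91.7, 96.6 and 100% in DKO samples, against 63.0, 73.0 and 50% in WT samples, 34.1 points apart (adjusted p = 0.0414). At the 4 CpGs of this window that all samples had read, weighted alike, the difference was 14.7 points and the groups overlapped. Both calls were lost when any replicate of either group was left out (adjusted p = 0.0613 to 0.359), with differences of 26.2 to 39.9 points, and with limma (0.385 and 0.445).

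A further 3 windows of Bcl11a came close to the threshold. The window 20.2 kb before the start site (23960001 to 23961000) had 47.9, 41.0 and 47.5% in DKO samples, against 18.8, 8.57 and 22.7% in WT samples (adjusted p = 0.0834). The window 50.8 kb after it (24031001 to 24032000) had 81.0, 74.5 and 91.7% in DKO samples, against 50, 44.4 and 62.5% in WT samples (adjusted p = 0.0605). The window 65.8 kb after it (24046001 to 24047000) had 75.0, 77.8 and 81.2% in DKO samples, against 54.3, 47.7 and 43.9% in WT samples (adjusted p = 0.0660). In all 3 the groups were well apart and the means differed by 28.8 to 30.1 points. Over the gene body the level was 82.0% ± 1.68 in DKO samples and 75.1% ± 1.70 in WT samples, 6.89 points apart without overlap (exact permutation p = 0.1).

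The start site of Bcl11a lies in a low stretch of 10 windows (23974001 to 23984000, 427 CpGs), the longest of the 4 low stretches found. It had 2.17% ± 0.477 in DKO samples and 1.07% ± 0.338 in WT samples, with all DKO samples above. The mitochondrial reads differed in the same direction by 0.437 points. Within 1 kb of the start site there were 3, 14 and 4 methylated reads of 307, 424 and 381 in DKO samples, against 0 of 505, 229 and 249 in WT samples, which allow up to 0.594, 1.31 and 1.2%. The share in DKO samples was thus 0.977, 3.30 and 1.05%, and in samples 1 and 3 it was no higher than the limit of 2 of the WT samples. Here too each CpG call was taken as a separate read, so the true limits are higher. The 2 windows next to the low stretch on the gene side had 78.1% ± 6.64 in DKO samples and 63.4% ± 4.59 in WT samples, without overlap. Those on the far side had 48.2% ± 16.5 in DKO samples and 46.9% ± 6.68 in WT samples, and overlapped.

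**Figure D4:**
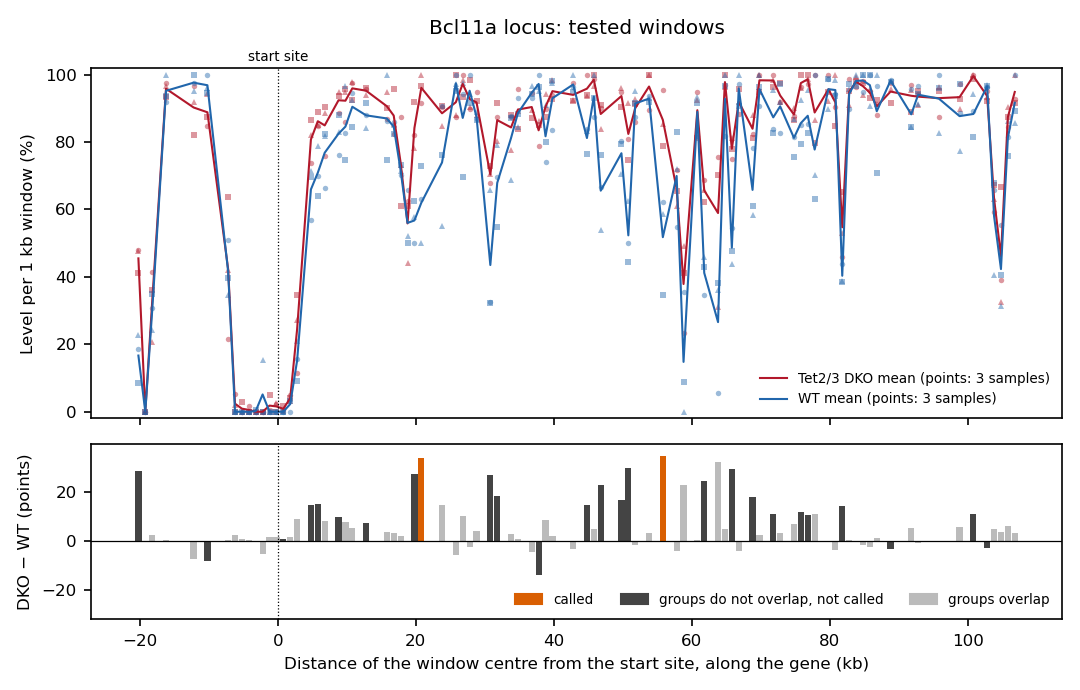
Level of each tested 1 kb window of the Bcl11a locus (%, upper panel; points are samples, lines join group means across untested gaps) and the difference between the DKO and the WT mean (points, lower panel) by distance from the start site (kb). Dark and orange bars are windows whose samples do not overlap between groups. Bars above 0 run along the gene, up to 34.8 points, while the low stretch around the start site stays near 0% in both groups.

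At Ebf1 and Pax5, the factors of B-lineage commitment, 0 windows were called, and the share of windows with all DKO samples above was below that of all autosomal windows. The gene body of Ebf1 had 85.3% ± 0.736 in DKO samples and 85.0% ± 0.468 in WT samples (SD, n = 3 each). The gene body of Pax5 had 72.2% ± 0.823 in DKO samples and 70.2% ± 0.943 in WT samples, with all DKO samples above by 2.03 points between the means (exact permutation p = 0.1). Among windows without overlap, the widest difference in either gene lay 188.8 kb after start site 2 of Ebf1 (chromosome 11, 44622001 to 44623000, 7 CpGs, 20 to 47 reads). It had 90.6, 90.9 and 61.7% in DKO samples, against 40.6, 60.7 and 40% in WT samples. DKO replicate 3 was only just above WT replicate 2, and the window was not called (adjusted p = 0.278).

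Ebf1 also held the window with the widest difference in the other direction among windows without overlap. It lies 4.77 kb after start site 2 (44438001 to 44439000, 10 CpGs, 30 to 98 reads) and had 55.1, 30.8 and 58.7% in DKO samples, against 80, 63.0 and 68.9% in WT samples. It was not called (adjusted p = 0.421). The window that holds start site 2 (44433001 to 44434000, 45 CpGs, 53 to 350 reads) had 5.77, 6.29 and 2.66% in DKO samples, against 9.96, 11.3 and 13.4% in WT samples, again without overlap and not called (adjusted p = 0.45). Within 1 kb of start site 2 the samples spread widely, with 26.8, 11.6 and 8.66% in DKO samples and 14.9, 23 and 35.0% in WT samples. Start site 1 of Ebf1, 2128 bp upstream, was unmethylated in both groups, at 1.87% ± 0.186 in DKO samples and 1.94% ± 1.23 in WT samples. Another window of Ebf1, 308.8 kb after start site 2 (44742001 to 44743000), had 78.3, 77.0 and 97.9% in DKO samples, against 59.0, 54.3 and 69.2% in WT samples (adjusted p = 0.307). At the 4 CpGs of this window that all samples had read, weighted alike, the difference was 37.9 points and the groups overlapped.

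Pax5 is read from the minus strand, and its start site lies at 44723566 on chromosome 4 within a low stretch of 7 windows (44723001 to 44730000, 235 CpGs). The window of the start site (44723001 to 44724000) had 13, 15.7 and 16.4% in DKO samples, against 15.2, 23.7 and 17.3% in WT samples, with overlap. At its CpGs that all samples had read, weighted alike, DKO samples were higher by 12.1 points, again with overlap. The whole stretch had 9.06% ± 0.370 in DKO samples and 8.95% ± 0.852 in WT samples (SD, n = 3 each), so it did not separate the groups. The 2 windows beyond it on the upstream side had 75.6, 69.5 and 72.3% in DKO samples, against 68.6, 51.2 and 58.2% in WT samples, just apart. The 3 windows of Pax5 with the widest differences without overlap lay 18.1, 119.1 and 184.1 kb after the start site and differed by 14.0 to 14.8 points. The nearest of them (44705001 to 44706000) had 100, 96.3 and 97.0% in DKO samples, against 80, 91.3 and 77.8% in WT samples. The middle window (44604001 to 44605000) had 68.0, 75.3 and 79.2% in DKO samples, against 58.1, 61.0 and 59.3% in WT samples. The farthest (44539001 to 44540000) had 87.9, 91.2 and 88.2% in DKO samples, against 78.6, 66.7 and 80% in WT samples. None of these 3 was called (adjusted p = 0.361 to 0.557). At CpGs that all samples had read, weighted alike, the groups overlapped in the middle and the farthest window, with differences of 8.17 and 10.7 points.

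The Il7r locus gave little to compare. It is poor in CpGs (6.44 per kb, beside 9.51 to 13.9 in the other loci), and 5 of its 54 windows could be tested. All 5 were highly methylated, with 92.1% ± 1.18 in DKO samples and 93.4% ± 0.436 in WT samples (SD, n = 3 each; exact permutation p = 0.2). The mean depth over the locus was 3.55 reads per CpG in DKO samples and 2.36 in WT samples. A difference at its start site, which could not be placed, would not have been seen.

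At the recombinase genes, DKO levels exceeded WT levels around both start sites, but 0 of the 21 tested windows were called. At Rag1 the size of the difference depended on which CpGs were counted. The genes stand 24820 bp apart from start site to start site and are read towards each other. From 1 kb before to 1 kb after the Rag2 start site (24 CpGs, 62 to 157 reads), the level was 82.2, 69.4 and 70.9% in DKO samples, against 54.8, 61.8 and 44.7% in WT samples. Around the Rag1 start site (19 CpGs, 79 to 108 reads) it was 84.5, 63.0 and 65.7% in DKO samples, against 46.7, 58.7 and 54.4% in WT samples. Neither pair of groups overlapped, and the means differed by 20.4 points at Rag2 and 17.8 points at Rag1 (exact permutation p = 0.1 each). At CpGs that all samples had read, the groups overlapped at both, with a difference of 17.9 points at Rag2 and 7.0 points at Rag1. They also overlapped within 0.5 kb of the start sites, where the means differed by 20.9 points at Rag2 and 22.3 points at Rag1. Without DKO replicate 1 the difference at Rag1 was 11.1 points.

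By window, the Rag2 start site (chromosome 2, 101464001 to 101465000, 9 CpGs, 20 to 67 reads) had 88.1, 68.3 and 75.0% in DKO samples, against 50, 67.4 and 42.5% in WT samples. DKO replicate 2 and WT replicate 2 were almost equal there, and the window was not called (adjusted p = 0.314). The next window into the gene (101465001 to 101466000) had 73.7, 58.3 and 63.9% in DKO samples, against 50, 50 and 36.0% in WT samples (adjusted p = 0.491). The window of the Rag1 start site (101489001 to 101490000, 12 CpGs, 39 to 84 reads) had 79.5, 59.5 and 48.5% in DKO samples, against 30.3, 47.8 and 34.5% in WT samples (adjusted p = 0.297). At CpGs that all samples had read, weighted alike, the groups overlapped in all 3 windows, with differences of 8.79 to 22.3 points.

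In the Rag2 promoter sequence printed above, the 3 CpGs differed from each other. Pooled over samples, the CpG 187 bases before the start site was methylated in 17 of 20 reads in DKO and 10 of 12 in WT, so it was high in both. The CpG 145 bases before it was methylated in 15 of 19 reads in DKO (78.9%, 95% Wilson interval 56.7 to 91.5%), against 3 of 11 in WT (27.3%, interval 9.75 to 56.6%). The CpG 14 bases before it was methylated in 11 of 15 reads in DKO (73.3%, interval 48 to 89.1%), against 0 of 13 in WT, which allows up to 23.1%. These intervals cover counting error only and not the spread between samples, which was wide. Over the 3 CpGs together the samples had 90.3, 73.3 and 50% in DKO, against 0, 60 and 26.7% in WT, from 6 to 31 reads each, and the groups overlapped (exact permutation p = 0.2).

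The Rag1 promoter sequence, by contrast, carried little methylation in either group. Its 3 CpGs were methylated in 1 of 7, 0 of 13 and 1 of 8 reads in DKO, against 1 of 26, 0 of 20 and 1 of 19 in WT. These CpGs took 28 of the 300 reads within 1 kb of the start site in DKO, against 65 of 261 in WT. Without them the level within 1 kb was 85.4, 69.1 and 76.3% in DKO samples, against 62.7, 76.1 and 70.7% in WT samples. The groups then overlapped, with a difference of 7.12 points (exact permutation p = 0.4). The same step at Rag2 left 16.7 points without overlap. Over the gene bodies, counted from 1 kb after the start site, the groups overlapped. The Rag1 body had 91.5% ± 0.589 in DKO samples and 91.4% ± 1.05 in WT samples, and the Rag2 body had 40.7% ± 5.05 in DKO samples and 47.1% ± 1.89 in WT samples (SD, n = 3 each; exact permutation p = 0.3). The Rag2 body holds a window of low level 3.63 kb after its start site (101468001 to 101469000, 22 CpGs), with 4.59, 4.49 and 11.4% in DKO samples, against 9.57, 0 and 11.2% in WT samples.

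**Figure D5:**
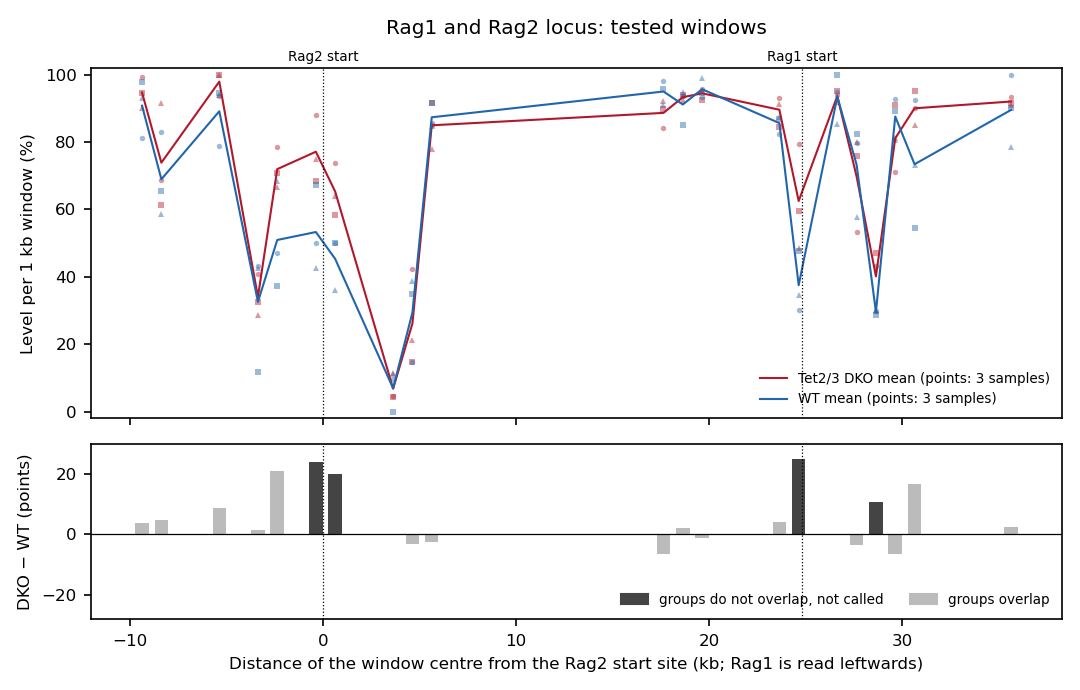
Level of each tested 1 kb window of the Rag locus (%, upper panel; points are samples, lines join group means across untested gaps) and the difference between the DKO and the WT mean (points, lower panel) by distance from the Rag2 start site (kb). Dark bars are windows whose samples do not overlap between groups. Among the dark bars, those of 20.0 to 25 points stand at or next to the dotted lines of the start sites. The window 3.63 kb after the Rag2 start site is low in both groups.

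Across the 6 loci together, windows of intermediate level differed most, as they did on all autosomes. The 79 windows at 50 to 80% had 73.2% ± 0.641 in DKO samples and 66.0% ± 2.67 in WT samples (SD, n = 3 each), 7.12 points apart, beside 6.01 points for all autosomal windows of that class. The 37 windows at 10 to 50% differed by 5.03 points, beside 4.99. The 29 windows below 10% differed by 0.759 points, beside 0.653, and the 407 windows at 80% or more by 1.10, beside 0.785. In each class all DKO samples lay above all WT samples (exact permutation p = 0.1). Within the 50 to 80% class the loci were unlike each other: the difference was 17.7 points at Bcl11a, 14.9 at Rag (6 windows), 5.71 at Ikzf1 (8 windows), 4.43 at Ebf1 (22 windows) and 3.00 at Pax5 (27 windows).

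Of 32 other genes of lymphoid development, signalling and DNA recombination, 22 had a start site that could be placed and tested, and 2 of these had a called window within 1 kb of it, both higher in DKO samples. Among 11366 placed protein-coding genes, 1.47% had such a window called higher and 0.176% lower. Lck, the kinase of early T-cell receptor signalling, had 79.1, 80.4 and 68.3% in DKO samples, against 56.8, 42.1 and 45.0% in WT samples (chromosome 4, 129250001 to 129251000; adjusted p = 0.0155). Tcf7, a factor of early T-cell commitment, had 42.9, 37.2 and 37.6% in DKO samples, against 44.8, 23.3 and 18.4% in WT samples (chromosome 11, 52097001 to 52098000; adjusted p = 0.0414). The groups were well apart at Lck and overlapped at Tcf7, where WT replicate 1 was the highest of the 6 samples, and both calls were lost when any replicate was left out.

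The other 20 genes had 0 called windows. The widest differences among them were -20.1 points at Lef1, a factor of the same family as Tcf7, -15.7 points at Blnk, an adaptor of B-cell receptor signalling, and 11.3 points at Flt3. Lef1 had 20.5, 11.7 and 30.6% in DKO samples, against 59.5, 24.4 and 39.1% in WT samples (adjusted p = 0.391), with DKO replicate 3 above WT replicate 2. Blnk had 40.1, 32.8 and 27.8% in DKO samples, against 53.8, 39.4 and 54.7% in WT samples (adjusted p = 0.453), with DKO replicate 1 just above WT replicate 2. Flt3, a receptor of early lymphoid progenitors, had 25.8, 18.2 and 6.90% in DKO samples, against 5.10, 11.2 and 0.781% in WT samples (adjusted p = 0.196), with overlap. Over the 22 genes, 17 had a higher median level in DKO samples (77.3%, beside 67.6% of all placed genes), and the median difference was 0.947 points, beside 0.904 points over all placed genes.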

How the data were processed

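Genomic DNA of 3 DKO and 3 WT samples was sequenced after bisulfite treatment. For each sample and each of 20451903 CpGs the authors deposited counts of methylated and of total reads, without normalisation. The submitters' processing notes name BSMAP 2.74 and mm9. The sources used here do not give read filters or the handling of PCR duplicates. The table had 0 columns of other samples. A level is methylated over all reads, in percent, and a read counts at each CpG it covers, so windows hold fewer separate reads than read calls. Coordinates are counted from 1 on mm9.

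Reads were summed over 1 kb windows. Autosomal windows of 3 or more CpGs, read at least 20 times in each sample, were fitted with a quasi-binomial model of the 2 groups. The dispersion was moderated as in limma's squeezeVar (prior 23.7 degrees of freedom, floor 1), followed by an F test and Benjamini-Hochberg adjustment over all 774732 windows. Single values were compared by two-sided exact permutation tests. Python 3.11.15, numpy 2.4.6, scipy 1.17.1, R 4.3.3 and limma 3.58.1 were used.

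No mm9 annotation was used here, so exons and introns are not given, and genes are described by distance from their start sites. RefSeq promoters (GRCm38.p6) were placed by CpG spacing: at least 80% of their CpGs had to be listed at the right distances, at 1 place only. Promoters of genes other than the members needed 6 or more CpGs and were searched over their chromosome. Member promoters needed 3 or more CpGs and were searched within their own locus only. Those with fewer than 6 CpGs, as at Rag1 and Rag2, needed every CpG listed. All 7 member genes were found by symbol among the RefSeq promoters, but the Il7r promoter could not be placed. Ikzf1 start site 2, with 2 CpGs, was placed at its RefSeq distance from start site 1, where both CpGs were listed. Of 31396 autosomal promoters, 17850 were searched, and 17611 matched at 1 place. Genes other than the members whose promoters all had fewer than 6 CpGs are therefore missing from the placed genes. Low stretches are runs of windows around a start site with a mean under 20%.

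The members, gene lists and tests were chosen with earlier results of these data known. The windows named are every called window, up to 3 per locus with the widest difference among those whose samples do not overlap between groups, and those holding start sites. Among the other lymphoid genes, those with a called window and the 3 with the widest differences are named. Alternatives varied the read minimum, the CpGs used, the window size, the test, the minimum difference, the low-stretch limit, the replicate block and the samples left out.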

Additional observations from a re-analysis of the deposited data

How the results depend on the processing

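The 5 windows called higher became 2 at a minimum of 10 reads, 1 at a minimum of 40 reads, 0 with limma on log2 ratios, 0 in windows of 0.5 kb, and 3 with the dispersion taken from the deviance, an alternative chosen after seeing the data. With the replicate number as a block in the model the count was 0, and over all autosomes it was 0, against 3854 calls without the block. Limma and the windows of 0.5 kb also gave 0 calls over all autosomes. Leaving out a replicate at a time gave 0 to 1 called windows in the loci and 0 of the other lymphoid genes, and 29 to 749 calls over all autosomes. The count of other lymphoid genes, 2, became 0 at 10 reads and 0 with the block. Samples with the same number deviated together only very slightly, with correlations of 0.00332 to 0.00359. Between different numbers the correlations were -0.00204 to -0.00136. The numbers were not taken as pairs, although each sample correlated best with its own number. For the values that follow, the cause was not tested. With CpGs read in every sample, the locus difference was 6.72 points at Ikzf1, 0.721 at Pax5 and 0.822 at Rag. With at least 5 reads per CpG in every sample, which left 2 to 77 CpGs per locus, it was 4.03 at Ebf1, -0.341 at Pax5, 4.39 at Il7r, 1.99 at Rag and 4.69 at Bcl11a. With equal CpG weights, also chosen after seeing the data, it was 1.08 at Pax5 and -1.70 at Il7r, and as a mean of windows 0.866 at Ebf1 and 5.79 at Rag. For the level classes, at least 5 reads gave 0.0581, 14.1, -1.18 and -0.401 points from the lowest to the highest class. CpGs read in every sample gave 7.14 for 10 to 50%, and classing by WT replicate 1 alone gave 0.402 below 10% and 7.03 for 10 to 50%. Around start sites, 0.5 kb either side gave 0.0882 at Ikzf1 start site 1, 40.1 at start site 2 and 0.694 at Bcl11a, and CpGs read in every sample gave 8.26 at Pax5, 7.0 at Rag1 and 2.78 at Bcl11a. Without the CpGs of the promoter sequence, again chosen after seeing the data, it was 5.05 at Ikzf1 start site 1, 4.24 at Pax5 and 7.12 at Rag1. The other 238 alternatives of these results stayed within the replicate spread or 1.5 times the count. Many of them could not do otherwise. For a level, leaving out a replicate cannot move the difference of means past this spread, and the block does not change it. These alternatives of the levels therefore say nothing about stability. Depth limited single CpGs, the Il7r locus and the CpG-poor promoters.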

Other observations

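Away from the start sites, 4 tested windows of the loci had a mean level under 20% although they lay at least 10 kb from any placed start site. They were chosen after their values were seen. The window of Bcl11a that lies 19.2 kb before the start site (chromosome 11, 23961001 to 23962000, 20 CpGs) had 0 methylated reads of 42, 138 and 70 in DKO samples, against 0 of 70, 27 and 97 in WT samples. These counts allow up to 7.14, 2.17 and 4.29% in DKO samples and up to 4.29, 11.1 and 3.09% in WT samples. Each CpG call was again taken as a separate read, so the true limits are higher. It directly follows the window in which DKO samples averaged 45.5% and WT samples 16.7%. The window of Pax5 that lies 46.1 kb after the start site (chromosome 4, 44677001 to 44678000) holds 83 CpGs, and it had 9.27, 10.6 and 12.7% in DKO samples, against 13.9, 4.65 and 8.31% in WT samples. The remaining windows lie in the Ikzf1 locus, 73.3 and 98.3 kb after start site 2. The nearer one had 12.8, 19.4 and 25% in DKO samples, against 12.5, 14.3 and 6.67% in WT samples, and the farther one had 26.9, 9.17 and 17.0% in DKO samples, against 14.5, 21.2 and 24.3% in WT samples. The groups overlapped in 3 of these windows and were equal at 0 in the window of Bcl11a.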
